A study of Mus musculus with 2 samples.

Results

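The genes described here encode nuclear subunits of the oxidative phosphorylation complexes. They were taken as the protein-coding genes of GENCODE release M21 (genome build GRCm38, which is mm10) whose symbol begins with Nduf, Uqcr, Atp5, Cox4, Cox5, Cox6, Cox7 or Cox8, together with Sdha, Sdhb, Sdhc and Sdhd, on nuclear chromosomes. The rule took 94 gene models of 21938 protein-coding models on chromosomes 1 to 19, X and Y. They carried 93 symbols, because Atp5o is annotated as a pair of models, and lay on 19 chromosomes with 3 of them on X. By symbol the set also took 8 Ndufaf genes, which encode assembly factors of complex I and not subunits of it.

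The measurements were ATAC-seq of mouse regulatory T cells, an assay in which a transposase inserts preferentially into open chromatin, so that accessible DNA is recovered as regions of many insertions. The series held 1 group of 2 libraries from primary cells of strain C57BL/6NJ, with no treated or control group to compare them with. The labels gave no treatment, sex or age, linked a protocol for differentiating CD4+ T cells that was not read here, and assigned both libraries to the same donor identifier, so that separate animals were not established. Names of the list entries held 72 h and words for an insert of another assay, whose meaning the sources do not state.

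Each library had its own list of accessible regions, with 68903 regions in replicate 1 and 78262 in replicate 2, and no read counts, so that the sequencing depth was unknown. Of the regions on chromosomes 1 to 19, X and Y, 93.2% in replicate 1 and 81.6% in replicate 2 overlapped a region of the other list. The labelled cell type was checked against its markers. All 7 regulatory T cell markers had a promoter region in both replicates, Foxp3, Il2ra and Ctla4 among them. So had all 7 general T cell markers, and 64.4% of all protein-coding genes by the same rule. As percentiles of signal within a list, the regulatory T cell marker regions had medians of 43.8 and 51.9. Those of the general T cell markers were 63.3 and 61.1, beside 82.0 and 83.6 for all genes with a region in both. The region of Foxp3 was shared with Ppp1r3f, and its summit lay 887 bp from the nearest Foxp3 start in both lists. Of the markers of other cells, 1 of 4 for B cells (Pax5), 1 of 4 for myeloid cells (Cd68), 2 of 4 for muscle (Ckm and Myh7), 0 of 4 for testis and 0 of 3 for hepatocytes had one. By signal Pax5 stood at 86.0 and 88.0, above every regulatory and general T cell marker, and Cd68 at 20.8 and 21.2. The share of any other cell type in the libraries was not tested.

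Oxidative phosphorylation is the chain of protein complexes in the inner mitochondrial membrane that passes electrons from NADH and succinate to oxygen and uses the resulting proton gradient to make ATP. Complex I oxidises NADH, complex II oxidises succinate, complex III passes electrons to cytochrome c, complex IV reduces oxygen, and complex V is the ATP synthase. A few subunits are encoded by mitochondrial DNA and the rest by nuclear genes, which are expressed in nearly every cell, and several subunits of complex IV have additional isoforms confined to heart and skeletal muscle, lung or testis. Regulatory T cells are known for relying on mitochondrial respiration more than activated conventional T cells do.

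The promoters of the nuclear subunit genes were accessible almost throughout. A promoter was taken as 1 kb to either side of any annotated start site, and was called accessible where a region of each list overlapped it. By this rule 88 of 94 members (93.6%) had a promoter region in both replicates, and the same rule called 64.4% of all protein-coding genes. Each list alone called the same 88 members, beside 64.8% of all genes in replicate 1 and 65.8% in replicate 2. The 6 that lacked one were Cox6a2, Cox7b2, Cox8b, Cox8c and Ndufa4l2, all isoforms of limited tissue range or inducible expression, and the second gene model of Atp5o. No test of the members against other genes was made, since genes are not replicates and the only replication was between the 2 lists.

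The height of a region was read from the signal the authors gave it, as a percentile rank among all regions of its own list. The promoter regions of the 88 members had a median signal percentile of 92.5 in replicate 1 and 92.8 in replicate 2, a mean of 92.6 ± 0.255 (SD, n = 2). Promoter regions of all 14121 protein-coding genes that had one in both replicates had medians of 82.0 and 83.6, a mean of 82.8 ± 1.10 (SD, n = 2). A mean percentile of 90 or more was reached by 53 of the 88 members (60.2%) and by 33.7% of all such genes, and a mean under 50 was found for 5 members (5.68%) and for 14.2% of all such genes. In width the regions were large among all regions of a list but not among promoter regions. Their median width was 1129.5 bp in replicate 1 and 1187 bp in replicate 2, beside 1192 and 1261 bp for promoter regions of all genes. Over all regions of a list the median was 632 and 635 bp.

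**Figure D1:**
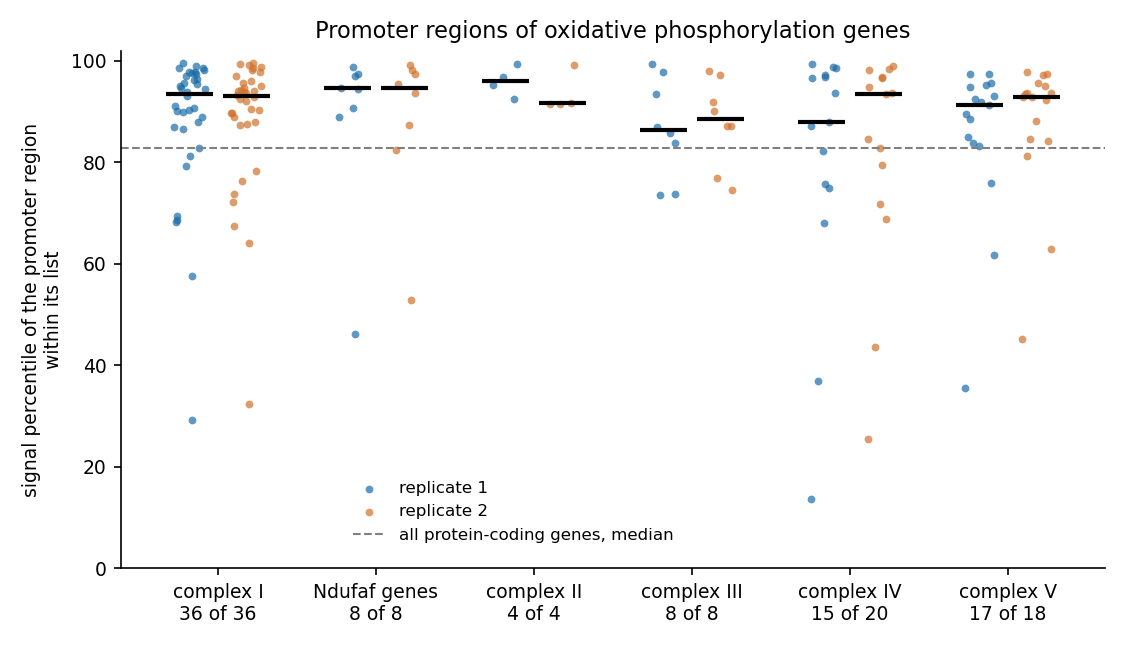
Each point is the promoter region of 1 gene, with its signal percentile within its own list on the vertical axis, grouped by complex on the horizontal axis, where the numbers give the genes with a region in both replicates. Black bars are medians and the dashed line is the mean of the medians of all protein-coding genes in the 2 replicates (82.8). Most points of every complex lie above that line, with a few genes of complexes I, IV and V and the Ndufaf gene Ndufaf3 far below it.

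Complex I, the NADH dehydrogenase, had a promoter region in both replicates at 36 of 36 genes. The median signal percentile was 93.5 in replicate 1 and 93.1 in replicate 2. The 7 core subunits, which hold the flavin and the iron-sulphur clusters, were lowest at Ndufs1, with 57.5 and 64.2. The highest was Ndufv1, which encodes the NADH-binding subunit, in replicate 1 (98.6 and 97.8) and the iron-sulphur subunit gene Ndufs8 in replicate 2 (97.9 and 98.2). The 29 accessory subunits, which surround the core, held both the highest and a very low member of the whole set. Ndufb6, a membrane-arm accessory subunit, stood at 99.6 and 99.4, first among all members by the mean of both lists. Ndufb5 (97.5 and 99.5) and Ndufs5 (99.0 and 98.6) were close behind. At the other end Ndufb10 stood at 29.2 and 32.4, below every other complex I gene in both lists.

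Some promoter sequences are printed to show what lies under these regions. They are the windows of 250 bases before to 50 bases after the start site in RefSeq (build GRCm38.p6), written 5′ to 3′ on the strand of the gene. Capitals mark exact matches, on either strand, to 10 motifs: the NRF1 core (GCATGCGC) and the full NRF1 motif (GC directly followed by that core), ETS or GABP (CCGGAAG), the YY1 core (AAGATGG) and the full YY1 motif (that core directly followed by CGGC), SP1 or KLF (GGGCGG), NFY (CCAAT), CRE (TGACGTCA) and a near match of it (TGACGCA), and the TATA box (TATAAA). Every match to a full motif is thus also a match to its core. A match is a description of the letters and not evidence that a protein binds. Positions are counted from the start site as 0, negative upstream. For complex I the strongest member and a core subunit with a YY1 match are shown.
Ndufb6, chr4:40279372-40279671, minus strand: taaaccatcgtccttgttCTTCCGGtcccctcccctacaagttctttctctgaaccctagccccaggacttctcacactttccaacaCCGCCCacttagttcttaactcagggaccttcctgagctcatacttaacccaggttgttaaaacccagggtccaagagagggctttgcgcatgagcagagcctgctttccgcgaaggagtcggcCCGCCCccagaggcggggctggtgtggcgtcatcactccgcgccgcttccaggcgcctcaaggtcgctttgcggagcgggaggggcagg
Ndufs7, chr10:80249199-80249498, plus strand: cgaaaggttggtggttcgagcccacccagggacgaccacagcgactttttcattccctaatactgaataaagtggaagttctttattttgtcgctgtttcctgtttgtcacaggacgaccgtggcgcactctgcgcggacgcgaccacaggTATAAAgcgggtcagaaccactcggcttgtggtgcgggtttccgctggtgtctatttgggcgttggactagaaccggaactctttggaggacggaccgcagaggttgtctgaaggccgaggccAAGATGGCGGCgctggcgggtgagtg
Ndufb6 held an ETS match at −232 to −226 and SP1 matches at −163 to −158 and −39 to −34. Ndufs7, a core subunit at percentiles 90.1 and 88.9, held the full YY1 motif downstream of its start at 24 to 34, and a TATA match at −99 to −94.

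The 8 Ndufaf assembly factors, which help put complex I together and then leave it, all had a promoter region in both replicates. Their median percentile was 94.6 in replicate 1 and 94.6 in replicate 2. Ndufaf7 was the highest at 98.8 and 99.2. Ndufaf3 was the lowest at 46.1 and 52.8, apart from the other 7, which lay between 82.5 and 99.2 over both replicates.

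All 4 genes of complex II, succinate dehydrogenase, had a region in both replicates, and all stood above 91 in each. The flavin subunit gene Sdha was at 96.9 in replicate 1 and 91.6 in replicate 2, and the iron-sulphur subunit gene Sdhb at 92.5 and 91.7. Of the membrane anchors, Sdhc was at 99.5 and 99.2, the second highest of all members by the mean of both lists, and Sdhd at 95.3 and 91.5. Sdhc thus differed least between the lists, and Sdha most.

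Complex III, the cytochrome bc1 complex, had a region in both replicates at 8 of 8 genes taken by the rule, which leaves out its subunit gene Cyc1. The median signal percentile was 86.4 in replicate 1 and 88.6 in replicate 2, the lowest of the complexes whose genes were all accessible. Ranked by −log10 q, the authors' significance, the order turned. On that scale the medians were 93.7 and 94.2, the highest of complexes I to V. Uqcrc1, a core protein, was the highest at 99.4 and 98.0, followed by Uqcrb at 97.8 and 97.2. The lowest were the small subunit genes Uqcr11 at 73.5 and 77.0 and Uqcrh, the hinge protein, at 73.7 and 74.5. The Rieske iron-sulphur protein gene Uqcrfs1 stood at 87.0 and 90.1. The Uqcrc1 window is printed because it holds the full NRF1 motif, the site of a factor known for its targets among respiratory chain genes.
Uqcrc1, chr9:108936398-108936697, plus strand: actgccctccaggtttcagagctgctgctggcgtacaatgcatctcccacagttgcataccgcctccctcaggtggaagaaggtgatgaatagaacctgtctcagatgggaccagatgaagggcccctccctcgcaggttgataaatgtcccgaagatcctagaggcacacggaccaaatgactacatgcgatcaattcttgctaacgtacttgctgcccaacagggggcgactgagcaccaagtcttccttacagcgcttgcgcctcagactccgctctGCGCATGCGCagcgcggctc
Its NRF1 match lay just downstream of the start, at 30 to 39, within the promoter region of each list.

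Complex IV, cytochrome c oxidase, was where accessibility varied. Of 20 genes 15 had a promoter region in both replicates, and all 5 that lacked one were isoform genes. Ndufa4 and Ndufa4l2 were counted here, since the Ndufa4 protein is a subunit of complex IV despite its name. Genes without a tissue-restricted counterpart were high, with Cox5b at 99.4 and 98.2, Cox7c at 98.6 and 99.1 and Cox7a2l, which encodes a factor that joins complexes into supercomplexes, at 98.9 and 98.4. Cox5a, at 75.8 and 79.4, and Cox6c, at 68.1 and 71.8, were lower.

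Isoform genes of complex IV were compared as pairs. The general forms, which most tissues use, had a promoter region in both replicates in 7 of 7 cases. The isoforms known from few tissues, together with the hypoxia-induced Ndufa4l2, had one in 3 of 8 cases. With a promoter of 2 kb to either side, Cox6a2 and Ndufa4l2 were called as well. That made 5 of 8, near the 66.4% of all protein-coding genes called at this width. With 1 kb to either side, the general share lay above and the restricted share below the 64.4% of all protein-coding genes. In the order of the general form and its counterpart, Cox8a stood at 97.1 and 96.8, with no region for the muscle form Cox8b or the testis form Cox8c. Ndufa4 stood at 96.8 and 96.6, with no region for Ndufa4l2. Cox6a1 stood at 87.1 and 84.6, with no region for the muscle form Cox6a2.

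The testis form Cox7b2 had no region, and its general partner Cox7b, at 13.7 in replicate 1 and 25.5 in replicate 2, was the lowest of all 88 members in both lists. Cox4i1 stood at 82.2 and 82.9, above the lung form Cox4i2 at 37.0 and 43.6. Cox6b1 stood at 88.0 and 93.6, above the testis form Cox6b2 at 75.0 and 68.7. The muscle form Cox7a1, by contrast with the other muscle forms, was at 93.8 and 93.7, within 3 percentile points of the general Cox7a2 at 96.6 and 94.8. Its summits lay 20 and 17 bp upstream of its own start, and no other protein-coding gene started within 1 kb of the region. Of the 4 muscle markers checked, Acta1 and Myod1 had no promoter region in either list, Ckm had one that it shared with Klc3, and Myh7 had one at percentiles 8.82 and 35.4.

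**Figure D2:**
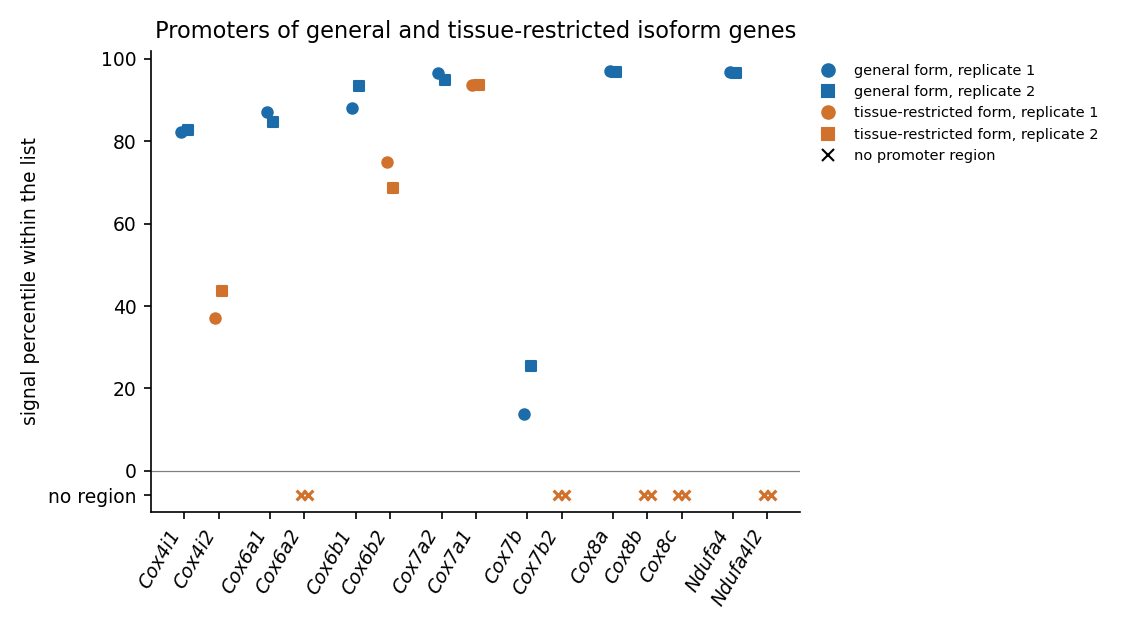
Signal percentile of the promoter region within its list (vertical axis) for each general isoform gene (blue) and its tissue-restricted or inducible counterpart (orange), with circles for replicate 1, squares for replicate 2 and crosses for genes with no promoter region. Crosses stand at Cox6a2, Cox7b2, Cox8b, Cox8c and Ndufa4l2, while Cox7a1 lies near Cox7a2.

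Promoter sequences of some of these isoforms are shown, with Cox8a beside Cox8b and Cox7b beside Cox7b2. Those of Cox7a1 and Cox6a1 are shown without their counterparts.
Cox8a, chr19:7217567-7217866, minus strand: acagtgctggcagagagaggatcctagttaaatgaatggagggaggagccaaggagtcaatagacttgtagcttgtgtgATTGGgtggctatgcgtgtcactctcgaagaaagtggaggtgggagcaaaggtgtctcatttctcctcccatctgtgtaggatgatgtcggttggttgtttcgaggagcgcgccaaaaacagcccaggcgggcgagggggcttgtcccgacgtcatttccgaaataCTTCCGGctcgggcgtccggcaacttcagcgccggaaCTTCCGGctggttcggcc
Cox8b, chr7:140900397-140900696, minus strand: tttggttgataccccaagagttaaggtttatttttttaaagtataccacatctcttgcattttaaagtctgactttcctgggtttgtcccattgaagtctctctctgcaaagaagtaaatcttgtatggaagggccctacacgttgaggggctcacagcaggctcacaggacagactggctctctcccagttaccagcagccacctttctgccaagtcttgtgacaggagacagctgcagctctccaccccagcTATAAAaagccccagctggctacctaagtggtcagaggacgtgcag
Cox7b, chrX:106015450-106015749, plus strand: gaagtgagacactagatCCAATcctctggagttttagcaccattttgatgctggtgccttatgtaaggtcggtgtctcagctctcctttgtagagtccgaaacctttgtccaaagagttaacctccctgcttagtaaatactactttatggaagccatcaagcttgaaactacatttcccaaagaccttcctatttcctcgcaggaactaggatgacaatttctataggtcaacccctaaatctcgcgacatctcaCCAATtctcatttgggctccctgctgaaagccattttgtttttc
Cox7b2, chr5:71548156-71548455, minus strand: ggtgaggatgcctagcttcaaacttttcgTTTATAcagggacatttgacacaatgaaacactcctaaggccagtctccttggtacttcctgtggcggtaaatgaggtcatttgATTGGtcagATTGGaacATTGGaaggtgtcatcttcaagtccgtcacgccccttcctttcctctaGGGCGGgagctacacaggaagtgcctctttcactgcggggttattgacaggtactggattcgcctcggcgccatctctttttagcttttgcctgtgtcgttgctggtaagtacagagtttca
Cox7a1, chr7:30183921-30184220, plus strand: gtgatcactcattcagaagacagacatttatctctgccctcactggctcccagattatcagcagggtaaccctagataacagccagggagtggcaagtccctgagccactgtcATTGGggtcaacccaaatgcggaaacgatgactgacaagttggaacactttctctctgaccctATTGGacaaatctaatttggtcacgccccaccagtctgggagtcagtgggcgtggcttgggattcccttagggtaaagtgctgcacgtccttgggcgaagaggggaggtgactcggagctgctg
Cox6a1, chr5:115348909-115349208, minus strand: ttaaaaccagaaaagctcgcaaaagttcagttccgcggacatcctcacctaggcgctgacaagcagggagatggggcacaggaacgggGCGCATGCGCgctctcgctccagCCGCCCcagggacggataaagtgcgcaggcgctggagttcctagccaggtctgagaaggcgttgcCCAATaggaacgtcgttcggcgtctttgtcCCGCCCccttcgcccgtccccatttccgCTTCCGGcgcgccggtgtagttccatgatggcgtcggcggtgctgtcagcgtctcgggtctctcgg
The window of Cox8a had a GC content of 56.0% and a ratio of observed to expected CpG of 0.842, with ETS matches at −5 to 1 and at 32 to 38. That of Cox8b had 48.3% and 0.115, with a TATA match at 4 to 9 and no other match. Cox7b, although accessible, shared the lowest GC content of all 76 member windows, 43.3%, with Uqcr10, and NFY matches were the only ones in it. Its ratio was 0.368. Cox7b2, which had no promoter region, stood higher on both, with 48.7% and 0.564, and held matches to SP1, NFY and the TATA box. Cox7a1 was low in CpG as well, with a ratio of 0.333, and likewise held only NFY matches. Cox6a1 combined the full NRF1 motif at −162 to −153 with an ETS match at −16 to −10, 2 SP1 matches and 1 NFY match.

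Complex V, the ATP synthase, had a promoter region in both replicates at 17 of 18 gene models, and the second Atp5o model was the exception. That model spans chr16:91684398-91926982 and overlaps Itsn1, and the first Atp5o model was accessible at 88.6 and 81.2. The median percentile was 91.4 in replicate 1 and 92.9 in replicate 2. Among the genes of the catalytic head, Atp5b (beta subunit) stood at 97.4 and 95.1, Atp5c1 (gamma) at 91.4 and 92.3, and Atp5d (delta) at 35.5 and 45.2. The genes Atp5g1, Atp5g2 and Atp5g3 encode the same mature subunit c of the membrane ring from different loci, and ranked in that order at 97.3 and 97.9, 94.8 and 93.6, and 75.9 and 84.2. The order of the 3 was the same in both lists, and the gap between Atp5g2 and Atp5g3 exceeded the change of either between replicates.

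Atp5j, which encodes coupling factor 6, stood at 83.9 and 84.5 and starts head-to-head with Gabpa, the gene of the DNA-binding subunit of the ETS factor GABP. A single region of each list, chr16:84834446-84836355 in replicate 1, covered the starts of both, so the accessibility there could not be assigned to either gene. The Atp5j window is shown because it was the richest in GC of all members.
Atp5j, chr16:84835576-84835875, minus strand: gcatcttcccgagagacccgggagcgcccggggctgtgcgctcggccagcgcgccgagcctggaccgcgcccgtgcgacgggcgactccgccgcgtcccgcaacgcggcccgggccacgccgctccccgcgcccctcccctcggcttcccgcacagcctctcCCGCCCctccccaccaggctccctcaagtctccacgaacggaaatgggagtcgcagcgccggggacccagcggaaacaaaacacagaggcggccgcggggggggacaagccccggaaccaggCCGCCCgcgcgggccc
It had a GC content of 77.0% and 2 SP1 matches, and none to the ETS motif in this window.

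The replicates ranked the member promoters alike. The difference in signal percentile between the lists had a median size of 1.54 points over the 88 members, beside 2.59 over all genes with a region in both. The lists differed most at Cox7b (13.7 and 25.5), Atp5d (35.5 and 45.2) and Atp5h (84.9 and 93.4). Replicate 2 gave the higher percentile for 49 of the 88. The 5 lowest members by the mean of both lists were Cox7b (19.6), Ndufb10 (30.8), Cox4i2 (40.3), Atp5d (40.4) and Ndufaf3 (49.4), and the 5 highest were Ndufb6 (99.5), Sdhc (99.3), Ndufaf7 (99.0), Cox7c (98.9) and Ndufs5 (98.8).

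The authors' significance gave a higher place to some of the low members. Ranked by −log10 q in place of signal, the members had medians of 92.3 and 92.2, beside 87.2 and 88.7 for all genes, so the gap to other genes was smaller on this scale. For 7 members the −log10 q percentile was at least 20 points above the signal percentile: Ndufb10, Ndufs1, Ndufa13, Ndufaf3, Uqcrh, Cox7b and Atp5d. Ndufaf3, for example, stood at 92.2 and 94.0 by −log10 q and at 46.1 and 52.8 by signal. Under 50 on this scale were only 2 members by the mean of both lists, Cox4i2 (26.7 and 35.4) and Cox7b (36.0 and 50.4).

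**Figure D3:**
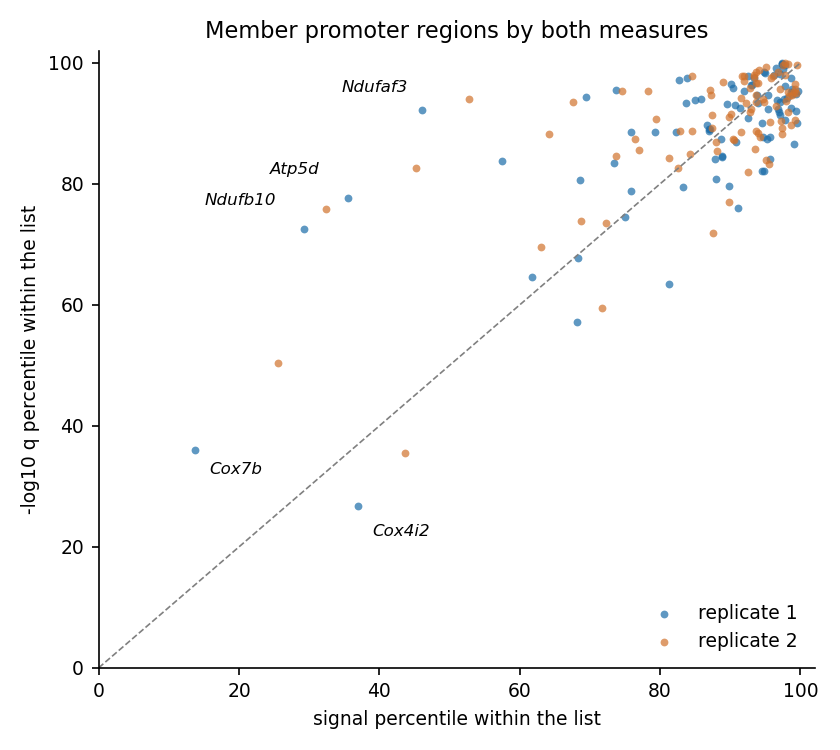
Promoter regions of the 88 members by their percentile of signal (horizontal axis) and of −log10 q (vertical axis) within their list, in blue for replicate 1 and orange for replicate 2; the dashed line marks equal ranks and names are set at the replicate 1 points. Ndufaf3, Atp5d and Ndufb10 lie far above the line, and Cox4i2 is below it.

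Most of the regions peaked at the start site itself. The summit, the position of highest signal in a region, lay within 100 bp of an annotated start of the gene in both replicates for 68 of the 88 members (77.3%), beside 52.5% of all genes with a region in both. The median distance was 31 bp in replicate 1 and 27 bp in replicate 2 for members, and 75 and 76 bp for all genes. The farthest summits were upstream: 724 and 725 bp at Ndufa13, 712 bp in both lists at Ndufa11, and 299 bp in both at Uqcr10. These 3 summits lay nearer the start of another gene, Yjefn3, Vmac and Zmat5 in that order. In all, 9 of the 88 members had a summit nearer another gene's start in both lists, the other 6 being Ndufa4, Ndufb11, Ndufb3, Ndufb9, Sdhd and Uqcrq.

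**Figure D4:**
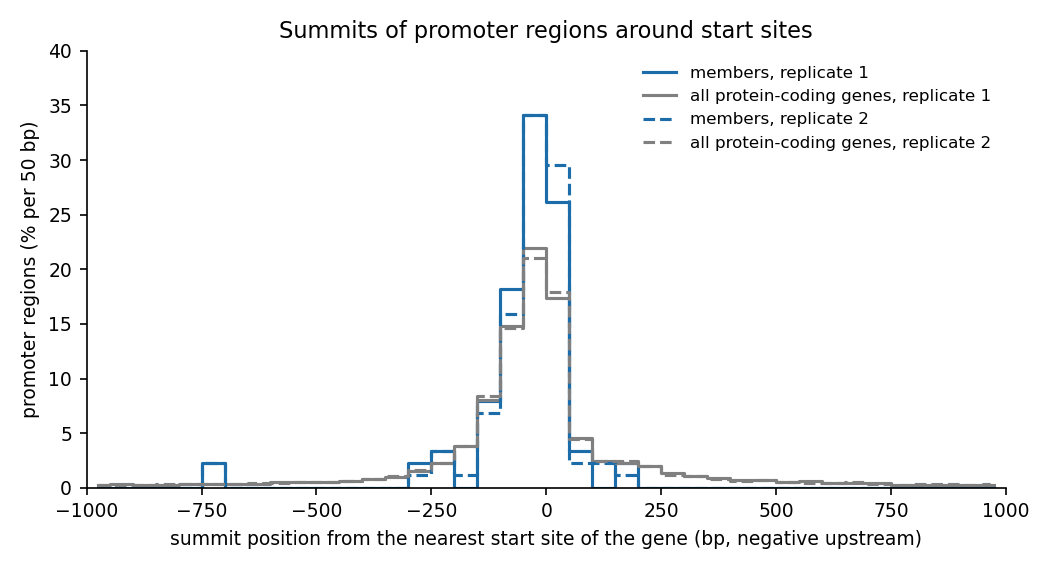
Share of promoter regions (vertical axis, percent per 50 bp) by the distance of their summit from the nearest start site of the gene (horizontal axis, bp, negative upstream), for the 88 members in blue and all protein-coding genes with a region in both replicates in grey, solid for replicate 1 and dashed for replicate 2. The members are gathered more closely around 0 than all genes, and a small group of members stands near −725 bp.

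Shared promoters were common in the set. For 35 of the 88 members (39.8%) the promoter region also lay within 1 kb of a start of another protein-coding gene, as it did for 20.1% of all genes with a region in both. A start on the opposite strand within 1 kb, in head-to-head order, was found for 34 of 94 members (36.2%) and for 11% of all protein-coding genes. Several partners act in mitochondria or in translation: Sdhd faced Timm8b, which encodes an import chaperone of the intermembrane space, Ndufs6 faced Mrpl36, a mitochondrial ribosomal protein gene, Ndufa7 faced Rps28, a ribosomal protein gene, and Ndufs1 faced Eef1b2, an elongation factor gene. Others were unrelated by name, such as Gdf9, an oocyte growth factor gene, opposite Uqcrq. No count was made of partner functions.

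Members with a shared region stood near the others by signal and higher by −log10 q. The median signal percentile was 93.0 and 92.8 for the 35 members with a shared region and 92.5 and 92.9 for the 53 without. By −log10 q the medians were 93.4 and 93.6 with a shared region and 89.0 and 91.0 without. Among all genes with a region in both, the signal medians were 87.1 and 88.1 for shared and 80.2 and 82.2 for unshared regions. Their −log10 q medians were 92.9 and 93.6 for shared and 85.2 and 86.8 for unshared regions. Shared member regions had a median width of 1272 and 1301 bp, against 1091 and 1103 bp for the others.

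RefSeq windows were found for 76 of the 94 members (80.9%) and 16716 of all protein-coding genes, and the motif counts cover these alone. Members without a window included Ndufs1, Ndufa2, Ndufb9, Ndufaf6, Ndufa4l2, Sdhc, Uqcrb, Uqcrc2, Uqcrq, Cox4i1, Cox4i2, Cox6a2, Cox6c, Cox8c, Atp5a1, Atp5mpl and the second Atp5o model. In 74 of 74 members with a window and a region in both replicates the window overlapped the region of each list, beside 82.2% of all such genes. The member windows had a median GC content of 57.8%, near the 57.0% of all genes, and a median ratio of observed to expected CpG of 0.831, against 0.602.

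Members were called accessible in every class of GC content. Of the windows with a GC content under 50%, 7 of 9 belonged to members with a region in both replicates, beside 26.3% for all genes of that class, and the exceptions were Cox7b2 and Cox8b. From 50 to 60% it was 37 of 37, beside 69.9%, from 60 to 70% it was 27 of 27, beside 90.3%, and from 70% upwards 3 of 3, beside 93.4%.

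The motifs most frequent relative to other promoters were those of NRF1 and YY1. The full NRF1 motif was in 7 of 76 member windows (9.21%, exact 95% interval 3.78 to 18.1), in 1.38% of all windows and in 1.98% of windows of genes with a region in both replicates. Its 7 holders came from 4 complexes: Ndufa11, Ndufaf4 and Ndufaf5 for complex I and its assembly, Uqcrc1 for III, Cox6a1 for IV, and Atp5g2 and Atp5k for V. The NRF1 core was in 12 (15.8%, 8.43 to 26.0), against 3.78% and 5.24%, and added Ndufa6, Ndufa8, Sdhb, Uqcr11 and Atp5l. These intervals cover only the counting of windows, and windows of the same genome are not independent draws.

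The full YY1 motif was in 5 windows (6.58%, 2.17 to 14.7), against 1.03% of all and 1.5% of accessible ones. All 5 belonged to complex I or its assembly: Ndufa9, Ndufs4, Ndufs6, Ndufs7 and Ndufaf8. Complex I and the Ndufaf genes also made up 36 and 8 of the 94 members, and a preference for complex I was not tested. All 5 matches lay downstream of the start, with their middles at 15 to 40, as did 72.5% of the 178 matches in all windows. The YY1 core was in 11 windows (14.5%, 7.45 to 24.4), against 6.37% and 6.94%. All 11 of its matches had their middle downstream of the start, beside 35.9% of the 1119 matches in all windows.

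The ETS motif was in 17 windows (22.4%, 13.6 to 33.4), against 12.4% of all and 17.4% of accessible ones, with Sdhb, Sdhd, Uqcrh, Ndufs3, Ndufs8 and Cox8a among its holders. Its matches lay close to the start, with a median position of −14. ETS, the NRF1 core or the YY1 core was present in 34 of 76 windows (44.7%), against 20.6% of all and 26.7% of accessible ones, and 6 windows held more than 1 of these 3. The share of accessible genes with ETS, CRE or its near match lay inside the interval of the members.

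For the other motifs the interval of the members held the share of all windows. The SP1 motif was in 35 windows (46.1%, 34.5 to 57.9), against 48.3% of all and 64.8% of accessible ones, so the members lay below accessible promoters in general. NFY was in 34 (44.7%, 33.3 to 56.6), against 39.0% and 38.4%. CRE and its near match were in 4 each (5.26%, 1.45 to 12.9), against 2.42% and 2.78% of all windows and 3.22% and 3.64% of accessible ones. The TATA box was in 7 (9.21%, 3.78 to 18.1), against 13.2% and 7.22%, and 7 windows held none of the 10 motifs.

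**Figure D5:**
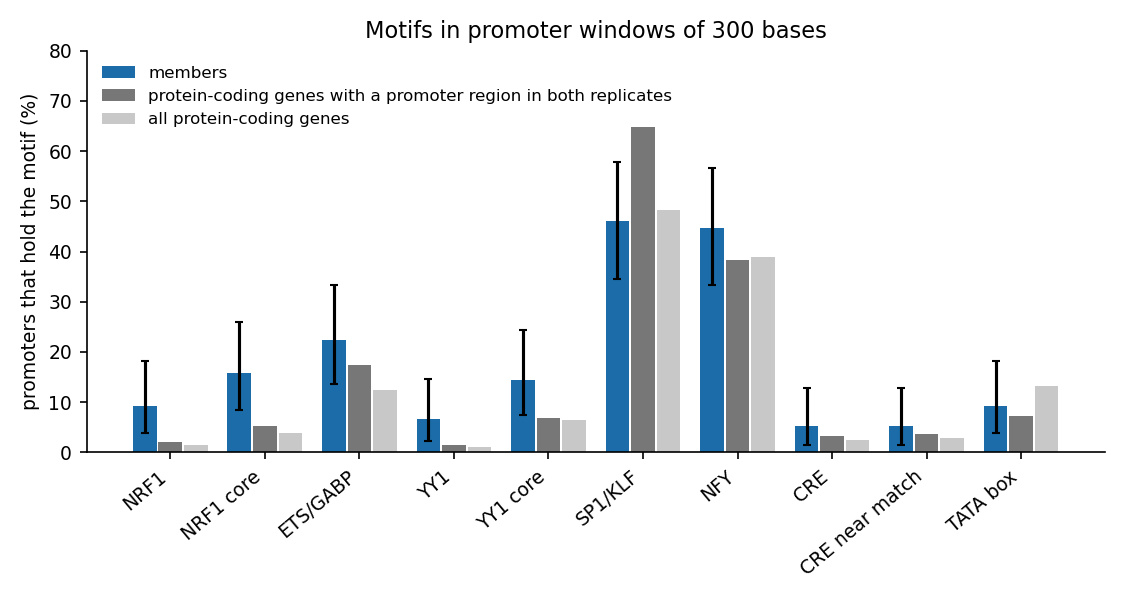
Share of promoter windows of 300 bases that hold each motif on either strand (vertical axis, percent), for the 76 members with a window (blue, with exact 95% binomial intervals), for protein-coding genes with a promoter region in both replicates (dark grey) and for all protein-coding genes (light grey). NRF1, YY1 and their cores are the motifs whose interval for the members lies above both grey bars, and the interval for SP1 lies below the dark grey bar.

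The height of members with and without a motif differed by motif, with few genes behind several values. Members with the NRF1 core had a median signal percentile of 93.5 and 92.6, and those without it 93.1 and 93.1. With ETS the medians were 92.5 and 92.9, and without it 93.9 and 93.4. Larger gaps stood at the CRE near match, with 98.4 and 98.3 for its 4 holders against 92.2 and 92.8. The 5 accessible holders of the TATA box had medians of 87.0 and 88.9 against 93.9 and 93.4, and the 5 holders of the full YY1 motif 90.1 and 88.9 against 93.9 and 93.4. None of these differences was tested. The 34 accessible members with SP1 stood at 94.7 and 93.8, and the 40 without at 89.98 and 91.9.

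The loci of the subunit genes were short, and promoter and distal regions were counted in them. A locus was the gene and 10 kb on each flank of it, and a region counted as replicated where it overlapped a region of the other list. The 94 loci had a median length of 27.4 kb, beside 37.4 kb for all protein-coding genes, and held a mean of 2.63 and a median of 2 replicated regions, beside 3.05 and 2. Over the middle range of member lengths, 24.0 to 33.1 kb, 46 member loci held a mean of 2.67, beside 1.81 for 6060 loci of all genes and 2.87 for those of them with a promoter region in both replicates. Distal regions alone, those with a summit over 1 kb from every protein-coding start, had means of 1.00, 0.780 and 1.10 in that order. The loci held 245 different replicated regions. Counted by locus, 94 lay at a start of the member, 52 at a start of another gene and 101 were distal.

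At least 1 replicated distal region was found in 52 of 94 member loci (55.3%), and in 59.5% of the loci of all protein-coding genes. With 50 kb on each flank the order turned, with 85 of 94 member loci and 78.0% of all loci, and a mean of 7.54 replicated regions against 6.85. The loci with most replicated regions were the second Atp5o model with 15, in a locus of 262.6 kb, and Ndufaf2 with 10, in one of 175.9 kb. Atp5d followed with 8, and Atp5h and Uqcrfs1 had 5 each, as had Ndufv2 and Cox6b1. Among the isoform genes with no promoter region called, Cox7b2 and Cox8c had no replicated region in the locus, and Cox6a2 had 1, centred 1.98 kb upstream of its start. Cox8b had 2, of which chr7:140908269-140909177, 8.35 kb upstream, stood at 93.9 and 89.2. Ndufa4l2 had 4, of which the nearest lay 2.05 kb upstream.

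The distal regions were of ordinary height. Their median signal percentile was 43.6 in replicate 1 and 49.4 in replicate 2 over 100 regions, beside 47.3 and 53.5 for all replicated distal regions. The strongest, chr1:36684002-36684718, lay 7.17 kb upstream of Cox5b and 1.13 kb from a start of Fam178b, at 98.2 and 99.2. Next came chr9:50590728-50591601, 12.8 kb downstream of the start of Sdhd, at 97.9 and 97.1. Then followed chr11:96058188-96059008 at Atp5g1, at 93.7 and 99.0, chr16:91917408-91918419 at Atp5o, at 96.3 and 95.9, and chr7:30607679-30608519 at Cox6b1, at 94.7 and 96.1. Which gene any of these regions acts on was not measured.

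Genes that build and regulate the complexes but fall outside the symbol rule were looked at from a list of 53. The list also held Cyc1, a nuclear subunit gene outside the rule, at signal percentiles of 90.5 and 90.3. All 53 had a promoter region in both replicates, beside 64.4% of all protein-coding genes. With 500 bp to either side 51 of 53 had one, beside 63% of all genes. With the summit required within 1 kb of a start it was again 51, beside 62.6%. The median signal percentile was 89.4 in replicate 1 and 91.2 in replicate 2, beside 82.0 and 83.6 for all genes with a region in both. The listed assembly factors of complex I, which leave out the Ndufaf genes, had a median of 97.9 and 98.1 over 8 genes. This lay above the 93.5 and 93.1 of the complex I subunits. By −log10 q the medians were closer, 92.2 and 92.5 beside 91.8 and 91.4. Nubpl, an iron-sulphur cluster factor, stood at 99.7 and 97.9 by signal. The assembly factors of complex V had the lowest signal medians, 72.2 and 73.1 over 4 genes, with Tmem70 at 58.1 and 54.1. The copper chaperone gene Sco1, at 48.0 and 55.6, and Surf1, at 53.9 and 65.0, were the lowest of the 17 for complex IV, while the electron carrier gene Cycs stood at 98.8 and 97.6.

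Of the 12 regulators, Polrmt, the mitochondrial RNA polymerase, was the highest at 99.9 and 99.8. Nrf1, Gabpa and Yy1, whose motifs are counted above, stood at 85.4 and 86.1, 83.9 and 84.5, and 76.8 and 77.9. Tfam, which packages mitochondrial DNA, stood at 81.9 and 91.0. Ppargc1a, the coactivator known for inducing these genes in muscle and brown fat, was the lowest at 57.6 and 69.2. Its summits lay 954 and 1201 bp downstream of its nearest start, and its region stood at 44.6 and 59.6 by −log10 q. By signal, all the regulators but Polrmt lay below the members' median in replicate 1. Of these Tfb1m alone, at 91.3 and 97.0, lay above it in replicate 2. By −log10 q the order turned, with medians of 95.3 and 95.8 for the 12 regulators, beside 92.3 and 92.2 for the members.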

How the data were processed

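ATAC-seq region lists of 2 libraries of 1 group were used. Per the labels and the notes deposited with them, the authors called regions on each library alone, from its alignments to mm10. Aligner, caller, their versions and any shift for the transposase were not given in the sources used here. The deposited lists give each region a signal, a −log10 p, a −log10 q, a summit and a score, and what the signal is relative to is not stated. Signal and −log10 q were used only as ranks within a list. The lowest deposited −log10 q was 1.00, which limits what could be called absent. The score and the −log10 p were not used.

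Python 3.11.15, pandas 2.3.3, numpy 2.4.6 and scipy 1.17.1 were used. A promoter was taken as 1 kb to either side of any GENCODE M21 start, and overlap as at least 1 bp; where several regions overlapped a promoter, the one with the highest signal was taken. Motif shares have exact (Clopper-Pearson) 95% intervals. Scripts were tested on simulated regions planted on annotated starts, where all 5000 chosen genes were called. Because the planted regions lay on starts, this checked that the code ran as written and not the rate of false calls. Members, gene lists and motifs were chosen with earlier results of these data known. The text names the members without a promoter region in both replicates, the 5 highest and 5 lowest, the isoform pairs, the largest replicate differences, the farthest summits, the loci with most regions and the strongest distal regions; others illustrate a complex, a partner gene or a motif. The settings tried were other windows, thresholds, start sites and flanks, and leaving out each replicate.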

Additional observations from a re-analysis of the deposited data

How the results depend on the processing

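The count of member promoters with a region in both replicates stayed between 86 and 90 of 94 under 9 settings, as the share of all genes ran from 59.4 to 66.4%, and 85 of the 88 called members kept the call in each. Cox7b and Ndufb10 lost it among the 50000 entries highest in signal, and Cox4i2 among the 50000 highest in −log10 q. Cox6a2 and Ndufa4l2 gained it with 2 kb to either side, which raised the tissue-restricted isoforms to 5 of 8, near the 66.4% of all genes. The median percentile was 92.2 by −log10 q and 75.1 when ranked among promoter regions of all protein-coding genes only. Replicated regions per locus came to 1.36 for the gene body alone (2.06 over all genes), 7.54 with 50 kb to either side (6.85, so the order turned), 2.41 with a −log10 q of 5 or more, 2.09 among the 50000 entries highest in signal and 2.20 among the 50000 highest in −log10 q; from 1 list alone the mean was 2.80 to 3.03. Loci with a replicated distal region numbered 10 for the gene body alone (38.8% of all genes) and 85 of 94 with 50 kb (78.0%, again with the order turned). The summit distance was 53.25 bp from the start of the main transcript. Of motif shares, NFY was 31.1%, the TATA box 2.7% and CRE 2.7% in 200 bp around the summit, beside 31.0, 2.74 and 2.49% of accessible genes. Without members that share their region the median percentile was 92.7, and with 1 gene model per symbol 88 of 93 were called; both settings were chosen after seeing the data. The causes were not tested. With unknown depth, a promoter with no region was only not called, and 2 libraries limit the precision.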

Other observations

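Mitochondrial DNA, which encodes further subunits, appeared in each list as 2 wide regions. In replicate 1 they spanned 136-4782 and 10883-16084 of the mitochondrial chromosome, and in replicate 2 131-4781 and 10861-16101. Their deposited signal was 2.40 to 2.59, with a −log10 q of 1735 to 2601. Their share of reads is not known from the lists.

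Symbols with the same prefixes also named 13 genes that are not protein-coding, 12 processed pseudogenes and 1 noncoding RNA gene. Of these, 4 had a region within 1 kb of their start in both replicates. Atp5l2-ps, at 92.2 and 91.6, lay within 2 kb of a start of Cwc25, and Ndufb1-ps, at 70.8 and 72.2, within 2 kb of a start of Cpsf2. Ndufs6b, at 46.2 and 29.7, and Uqcrh-ps1, at 51.0 and 29.0, had no protein-coding start that near, and both ranked lower in replicate 2.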
